A study of Mus musculus with 9 samples.

Results

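The transcripts of 10 integrin subunits that leukocytes carry, Itgam, Itgax, Itgal, Itgb2, Itga4, Itga5, Itgb1, Itgb7, Itgav and Itgb5, were followed in mouse bone-marrow-derived macrophages. The genes were picked by symbol, all 10 were among the 22376 gene symbols in the files, and all 10 were among the 13741 genes tested. Marrow of healthy wild-type C57Bl/6 mice was grown for 1 week with 10 ng/ml M-CSF, the macrophage growth factor. The cells were then washed free of M-CSF, plated at 50000 per well and kept for 48 h. Groups of 3 libraries came from wells given PD-L1 antibody at 100 ug/ml (called anti-PD-L1, numbered 1 to 3), wells given an irrelevant antibody of matched isotype at the same dose (isotype control, 4 to 6) and wells given none (untreated, 7 to 9). All groups share the strain, the genotype and the M-CSF culture. Whether the wells stem from different mice or cultures is not in the labels, and the spread that the p-values rest on may therefore be technical.

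Integrins are adhesion receptors made of an alpha and a beta chain, and neither chain reaches the cell surface well without a partner. The beta chain encoded by Itgb2 pairs with the alpha chains of Itgam (the pair is Mac-1, also known as complement receptor CR3), Itgax and Itgal (the pair is LFA-1), and these pairs bind the ICAM proteins, fibrinogen or complement-coated particles. Itgb1 pairs with Itga4, which binds VCAM-1 and fibronectin, and with Itga5, the classical fibronectin receptor chain; Itgb7 is the other partner of Itga4. Itgav pairs with Itgb5 and other beta chains to bind vitronectin and other matrix proteins and the bridging protein of dying cells.

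Levels are CPM, exonic read equivalents per 1e+06 of a library's scaled total, and a log2 fold change is a difference of log2(CPM + 1), smaller than the true change where a gene is low. A gene is said to rise or fall where limma's moderated test gave a Benjamini-Hochberg adjusted p under 0.05 over all tested genes. With anti-PD-L1 18.2% of all tested genes rose and 18.2% fell against the isotype control. Against untreated wells 22% rose and 20.5% fell. Each count of rises and falls in a gene or marker list is to be read beside these shares. Library totals ran from 23554320 to 40116467 exonic read equivalents. The target transcript Cd274 stood at 566.6 to 752.4 CPM with anti-PD-L1, 178.1 to 266.0 CPM with the isotype control and 201.6 to 246.4 CPM in untreated wells. All 12 macrophage markers were tested, and 4 rose and 2 fell against the isotype control. In means from the isotype control to anti-PD-L1, Adgre1 (1690 to 4099 CPM), Fcgr1 (571.7 to 1529 CPM), Marco (1.81 to 66.65 CPM) and Timd4 (0.07466 to 1.475 CPM) rose, and Cd68 (1164 to 779.4 CPM) and Mrc1 (78.03 to 18.46 CPM) fell. Csf1r stood at 2751 and 2906 CPM, and the list summed to 17680 to 24000 CPM, of which Lyz2 was the largest part (13000 and 11390 CPM with the isotype control and anti-PD-L1). Untreated library 7 stood apart from untreated 8 and 9 in several of the integrin genes, so log2 fold changes of the 10 subunits against untreated wells are given with and without it. Library 7 was picked out by these same values, so calls made without it are a description and not a separate test. Lane 4 held anti-PD-L1 2 and lane 1 the other 8 libraries, and results without it are among those that leave out 1 library.

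Itgam and Itgax are neighbours on chromosome 7 with 11076 bases between their transcripts, and they moved in opposite directions with anti-PD-L1, while Itga5 rose with Itgam. The bases just before the RefSeq start of these genes are therefore shown (GRCm38.p6, coding strand, 5′ to 3′). For Itgax that start lies 18 bases before the start of the transcript measured here, and positions count from the RefSeq start. Capitals mark the core of the motif of PU.1, the myeloid transcription factor (GAGGAA, either strand), and the AP-1 motif (TGANTCA).
Itgam promoter, chr7:128062390-128062639, plus strand: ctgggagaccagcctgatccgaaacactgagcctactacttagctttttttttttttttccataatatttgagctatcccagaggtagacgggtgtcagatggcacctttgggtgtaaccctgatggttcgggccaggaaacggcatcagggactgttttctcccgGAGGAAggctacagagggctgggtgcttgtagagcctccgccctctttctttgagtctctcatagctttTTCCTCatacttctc
Itgax promoter, chr7:128129300-128129549, plus strand: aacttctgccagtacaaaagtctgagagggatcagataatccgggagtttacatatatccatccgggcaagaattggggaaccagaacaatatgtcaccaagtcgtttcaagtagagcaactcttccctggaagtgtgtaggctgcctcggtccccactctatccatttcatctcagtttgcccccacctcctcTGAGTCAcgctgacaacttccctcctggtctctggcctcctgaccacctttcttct
Itga5 promoter, chr15:103366792-103367041, minus strand: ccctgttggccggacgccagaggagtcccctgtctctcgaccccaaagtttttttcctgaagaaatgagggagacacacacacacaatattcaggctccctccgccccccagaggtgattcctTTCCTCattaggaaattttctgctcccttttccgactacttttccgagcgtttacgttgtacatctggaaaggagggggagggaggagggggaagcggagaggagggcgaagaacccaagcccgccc
Promoters of 8 of the 10 genes were matched by symbol (all but Itgal and Itgb2) and searched over 250 bases before and 50 after the start. Counting from -1 at the last base before the start, Itgam held GAGGAA or its reverse complement from -84, from -15 and once after the start, and Itga5 from -127. Itgax held no such core and 1 AP-1 match, from -56. The PU.1 core was also found with Itgb1, Itgb7 and Itgav and was not found in the windows of Itga4 and Itgb5. Among all 32851 promoters of this length 28.3% held the PU.1 core and 7.8% the AP-1 motif. The STAT motif TTCNNNGAA (8.3% of promoters) and the hypoxia response core ACGTG (19.6%) had no match in any of the 8 windows, and the GC box GGGCGG (35.7%) was found in 6, in Itgb5 at 3 places. A match is a string of letters and not a measured binding site.

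Anti-PD-L1 and isotype control wells held antibody at the same dose and differ in what it binds. Of the 10 subunits 3 rose (Itgam, Itgal and Itga5) and 2 fell (Itgax and Itgb5), where 18.2% of all tested genes rose and 18.2% fell (36.4% in either direction). The libraries of both groups did not overlap in 7 of the 10, and in 52.1% of all genes. The median log2 fold change of the 10 was -0.04, beside -0.015 over all tested genes. Against untreated wells the same 5 moved the same way and Itgb2 was called higher as well, giving 4 rises and 2 falls beside 22% and 20.5% of all genes (42.4% in either direction), and 6 of the 10 did not overlap, beside 51.2%. Without untreated 7 there were 6 rises and 2 falls, Itgb7 and Itgav being added, beside 24.6% and 23.8% of all genes (48.4%). The 2 comparisons share the anti-PD-L1 libraries and are not independent of each other. The 5 calls of Itgam, Itgal, Itga5, Itgax and Itgb5 held in both comparisons under all 18 other settings, among them each library of the compared groups left out.

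**Figure D1:**
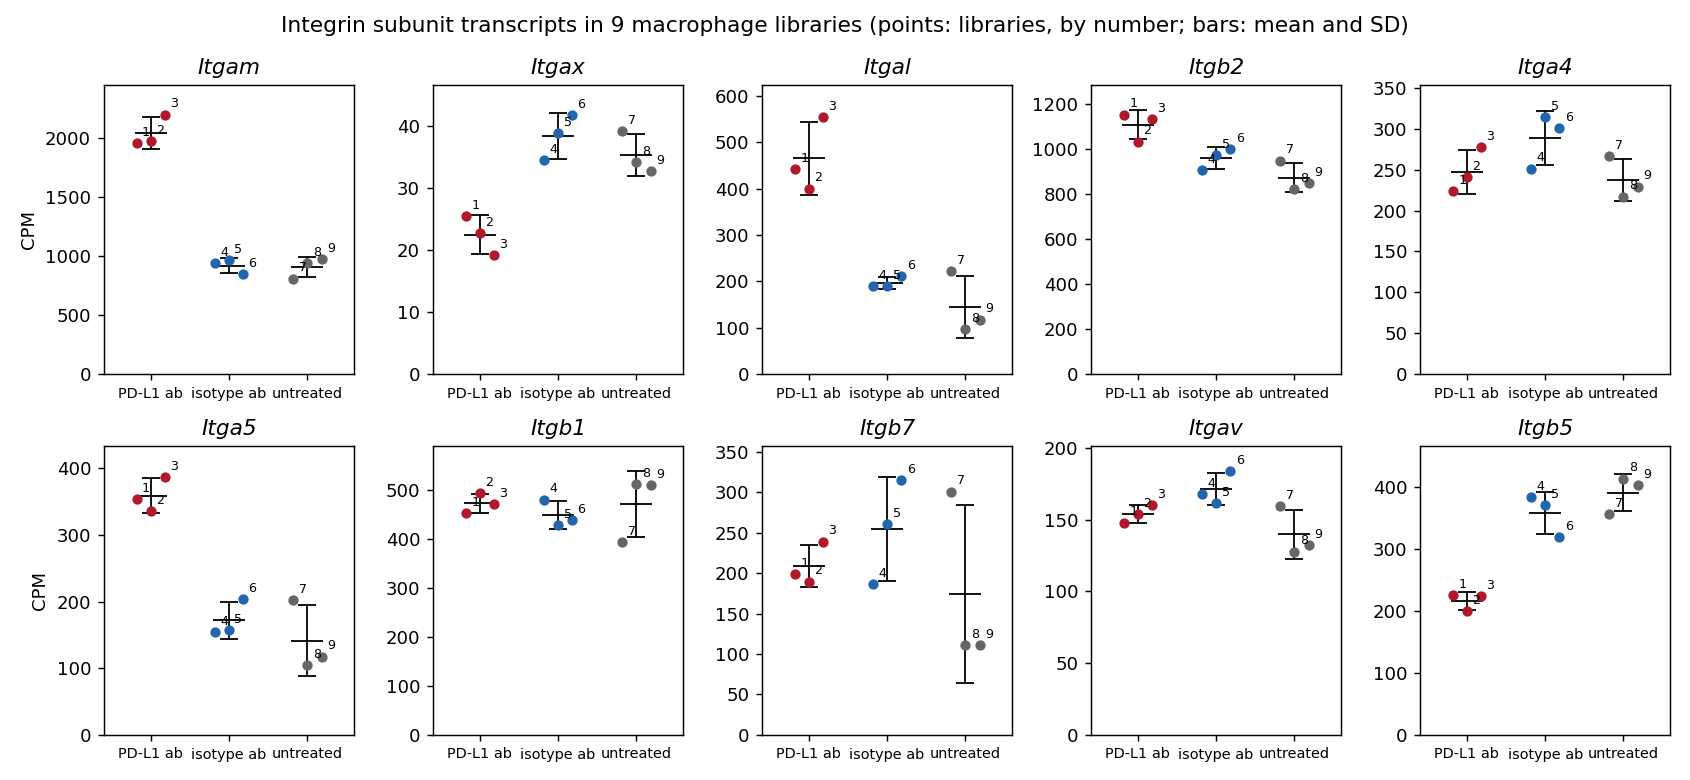
Level of each of the 10 integrin subunit transcripts (CPM, linear axis from 0) in the 3 anti-PD-L1, 3 isotype control and 3 untreated libraries; points are libraries marked with their number, and bars give the mean and SD. The anti-PD-L1 points of Itgam, Itgal and Itga5 lie above all other points and those of Itgax and Itgb5 below them, and untreated 7 lies apart from untreated 8 and 9 in Itgal, Itga5 and Itgb7.

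Itgam, the alpha chain of Mac-1 (chromosome 7 of GRCm38, 128062640 to 128118491, plus strand), was measured at 1957, 1974 and 2200 CPM with anti-PD-L1. It stood at 938.3, 968.5 and 847.2 CPM with the isotype control and at 810.1, 937.8 and 977.9 CPM in untreated wells. All 3 anti-PD-L1 libraries were more than double every other library, and the 2 control groups overlapped. The means were 2044 ± 136 against 918 ± 63.1 CPM (SD, n = 3), a log2 fold change of 1.15 (limma adjusted p = 1.3e-05, SE 0.11). Against untreated wells it was 1.17 (SE 0.11, limma adjusted p = 1.1e-05), and 1.09 without untreated 7. In the annotation 3450 of the gene's 5024 exonic bases also belong to Gm49368 on the same strand, so reads there could not be assigned to one of these gene models.

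Itgal, the alpha chain of LFA-1 (chromosome 7, 127296260 to 127335137, plus strand), stood at 443, 400.2 and 554.2 CPM with anti-PD-L1. With the isotype control it was 189.6, 189.2 and 210.9 CPM. Untreated 7 was at 222.2 CPM, while untreated 8 and 9 were at 96.76 and 117.8 CPM. The anti-PD-L1 libraries did not overlap with either group, and untreated 7 lay above the isotype control libraries rather than beside its own group. Itgal rose by a log2 fold change of 1.23 (limma adjusted p = 0.0023, SE 0.24) against the isotype control and 1.75 (SE 0.24, limma adjusted p = 0.000192) against untreated wells. Without untreated 7 the latter was 2.1 (SE 0.13).

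Itgax, the alpha chain known as CD11c and widely used as a dendritic cell marker (chromosome 7, 128129568 to 128150657, plus strand), was low throughout. Its libraries stood at 25.46, 22.68 and 19.19 CPM with anti-PD-L1, 34.46, 38.83 and 41.72 CPM with the isotype control and 39.17, 34.2 and 32.72 CPM in untreated wells. The anti-PD-L1 libraries were the 3 lowest. The fall was -0.75 (SE 0.12, limma adjusted p = 0.000536) against the isotype control and -0.64 (SE 0.12, limma adjusted p = 0.00137) against untreated wells, the latter -0.57 without untreated 7. Between 38.7% and 85.8% of its exonic bases were covered at least 20-fold, against 88.2% or more in each library for the other 9 subunits. Beside this fall, 5 of 11 dendritic cell markers fell and 2 rose against the isotype control. Their summed level did not separate the groups, at 514.8 to 557.9 CPM with anti-PD-L1, 426 to 671.2 CPM with the isotype control and 439.4 to 618.1 CPM in untreated wells. Ccr7 made up most of it, at means of 405.7 CPM with anti-PD-L1 and 387.9 CPM with the isotype control. The sum could therefore hardly show a change in the lower markers. In means from the isotype control to anti-PD-L1, those that fell were Cd209a (1.764 to 0.05264 CPM), Clec9a (1.252 to 0.09227 CPM), Flt3 (15.55 to 8.871 CPM), Kmo (11.36 to 3.859 CPM) and Siglech (7.617 to 1.807 CPM), and those that rose were Xcr1 (0.6988 to 3.155 CPM) and Clec4a4 (9.599 to 13.73 CPM). The part of such cells in the Itgax result was not tested, and in bulk samples fewer cells of a type and less RNA per cell cannot be told apart.

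Itgb2, the beta chain that all 3 of these alpha chains need (chromosome 10, 77530348 to 77565674, plus strand), is carried at the surface with any of them. It stood at 1154, 1034 and 1135 CPM with anti-PD-L1, 905.4, 973.7 and 1001 CPM with the isotype control and 949.1, 823.8 and 848.7 CPM in untreated wells. The anti-PD-L1 libraries were the 3 highest, by a small margin. The difference from the isotype control did not pass (log2 fold change 0.21, interval -0.01 to 0.42, limma adjusted p = 0.119), while DESeq2 called it (DESeq2 adjusted p = 0.0499). That from untreated wells did (0.34, SE 0.1, limma adjusted p = 0.0142, and 0.4 without untreated 7), but the call was lost without anti-PD-L1 1 (limma adjusted p = 0.0583), untreated 8 (limma adjusted p = 0.0672) or untreated 9 (limma adjusted p = 0.0557). It was also lost when libraries were scaled by total counts (limma adjusted p = 0.149).

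Neutrophils carry Mac-1 too, and the summed level of 13 neutrophil and granulocyte precursor markers was 434.1 to 584.6 CPM with anti-PD-L1, 755.2 to 1361 CPM with the isotype control and 580.6 to 764.8 CPM in untreated wells. Of the 12 tested, 5 fell and 0 rose against the isotype control, and 7 fell and 2 rose against untreated wells. Ly6g averaged 0.1089 CPM with anti-PD-L1 and 0.2352 CPM with the isotype control. LFA-1 is abundant on T cells, and of 6 tested T cell markers 2 fell against the isotype control. The list summed to 19.79 to 21.06 CPM with anti-PD-L1, 144.6 to 161 CPM with the isotype control and 132.7 to 186.9 CPM in untreated wells, most of it Cd28 (15.92 and 144.5 CPM with the 2 antibodies). Cd3e was at 0.2043 and 0.273 CPM, Cd3d at 0.0812 and 0.223 CPM and Cd3g at 0.08181 and 0.2458 CPM. Of 4 tested B and plasma cell markers 1 rose, Sdc1, which made up most of a list sum of 666.5 to 742.9 CPM with anti-PD-L1, 212.3 to 291.2 CPM with the isotype control and 150.9 to 329.1 CPM in untreated wells, while Ms4a1 stood at 0.1896 and 0.1919 CPM with the 2 antibodies. Of 8 tested monocyte markers 1 rose and 2 fell against the isotype control, and 3 rose and 1 fell against untreated wells. They summed to 447 to 526.4 CPM with anti-PD-L1, 445.2 to 519.1 CPM with the isotype control and 281.3 to 415.5 CPM in untreated wells. From the isotype control to anti-PD-L1 the mean of Hp rose (23.6 to 141.7 CPM). Those of Ccr2 (248.5 to 95.37 CPM) and Ace (0.573 to 0.2049 CPM) fell. The part of any of these cell types in the integrin values was not tested.

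Itga5, the alpha chain of the fibronectin receptor (chromosome 15, 103344286 to 103366791, minus strand), stood at 354.2, 335.5 and 387 CPM with anti-PD-L1 and 154.5, 157.6 and 203.2 CPM with the isotype control. Untreated 7 was at 202.4 CPM and untreated 8 and 9 at 105 and 117.4 CPM. No anti-PD-L1 library overlapped with a control, and untreated 7 again lay with the isotype control libraries. Itga5 rose by a log2 fold change of 1.07 (limma adjusted p = 0.00189, SE 0.2) against the isotype control and 1.39 (SE 0.2, limma adjusted p = 0.000282) against untreated wells, the latter 1.68 without untreated 7.

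Itgb1, the beta partner of both Itga4 and Itga5 (chromosome 8, 128685654 to 128733579, plus strand), did not pass in either comparison. Its libraries stood at 453.6, 493.7 and 472.5 CPM with anti-PD-L1, 481.2, 429 and 438.7 CPM with the isotype control and 394.6, 512.2 and 511.2 CPM in untreated wells. All groups overlapped. The log2 fold change against the isotype control was 0.07, with an interval of -0.16 to 0.31 (limma adjusted p = 0.632), and turned to -0.1 under total-count scaling. Against untreated wells it was 0.01, with an interval of -0.23 to 0.25, and it turned negative under total-count or upper-quartile scaling, with no filter, without anti-PD-L1 2 (-0.02) and without untreated 7 (-0.12).

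Itga4 (chromosome 2, 79255426 to 79333114, plus strand) stood at 224.1, 241.2 and 277.1 CPM with anti-PD-L1, 251.2, 314.2 and 300.6 CPM with the isotype control and 266.5, 217 and 229.2 CPM in untreated wells. The groups overlapped, and the difference from the isotype control was -0.22 (interval -0.47 to 0.03, limma adjusted p = 0.163). With total-count scaling it was -0.4 and passed (limma adjusted p = 0.0238). Against untreated wells Itga4 was at 0.06 (limma adjusted p = 0.712), and at 0.14 without untreated 7; it was slightly negative under total-count or upper-quartile scaling and without anti-PD-L1 3 or untreated 8. Its exons overlap those of Cerkl on the other strand over 1124 bases. Cerkl itself was at 4.724 ± 0.991 CPM with anti-PD-L1 and 6.228 ± 1.27 CPM with the isotype control, and without a stated stranded count the reads of this overlap cannot be told apart.

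Itgb7, the mucosal homing partner of Itga4 (chromosome 15, 102215995 to 102231935, minus strand), had the largest SD relative to its mean of the 10 in both control groups. It stood at 199.1, 189.4 and 238.8 CPM with anti-PD-L1 and at 186.7, 260.9 and 314.6 CPM with the isotype control. Untreated 7 was at 300.6 CPM and untreated 8 and 9 at 110.6 and 110.7 CPM. The anti-PD-L1 libraries therefore lay below untreated 7 and above untreated 8 and 9. Neither difference passed (log2 fold change -0.25, interval -0.98 to 0.47, against the isotype control, and 0.43, interval -0.3 to 1.15, against untreated wells). Without untreated 7, which was picked out by values such as these, the latter was 0.9 and passed (limma adjusted p = 0.00106).

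Itgb5 (chromosome 16, 33829665 to 33949338, plus strand), a beta chain of vitronectin receptors, fell to 226, 199.9 and 223.8 CPM with anti-PD-L1. It stood at 383.5, 370.7 and 319.4 CPM with the isotype control and at 356.7, 413.5 and 402.5 CPM in untreated wells, so that the 3 anti-PD-L1 libraries lay below all others. The log2 fold changes were -0.72 (SE 0.1, limma adjusted p = 0.000175) and -0.85 (SE 0.1, limma adjusted p = 4.9e-05), the latter -0.91 without untreated 7. Its alpha partner Itgav (chromosome 2, 83724397 to 83806917, plus strand) stood at 147.9, 153.7 and 160 CPM with anti-PD-L1, 168, 161.8 and 183.6 CPM with the isotype control and 159.2, 127.8 and 132.1 CPM in untreated wells. The anti-PD-L1 libraries of Itgav were just below the isotype control libraries and overlapped with the untreated ones. Itgav shares 634 exonic bases with Gm13684 on the other strand. Neither difference passed (-0.15, limma adjusted p = 0.238, and 0.14, limma adjusted p = 0.237). Total-count scaling brought the first to -0.33 (limma adjusted p = 0.0265), and leaving out untreated 7 brought the second to 0.24 (limma adjusted p = 0.0195).

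**Figure D2:**
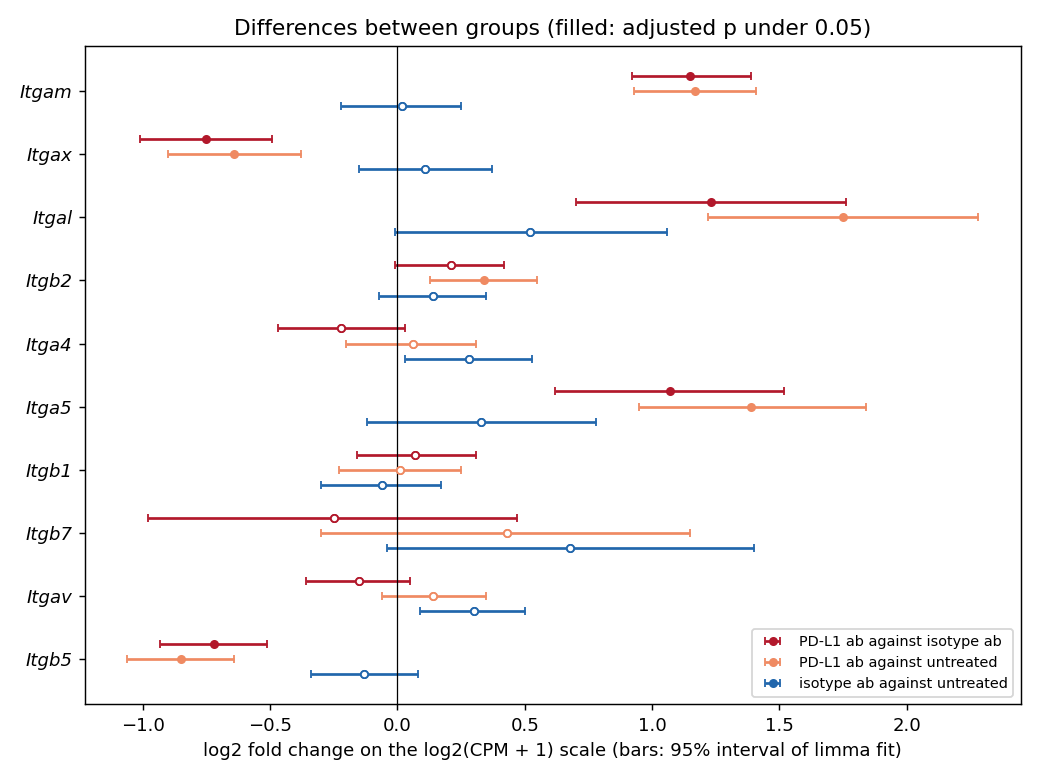
Log2 fold changes of the 10 subunits on the log2(CPM + 1) scale with 95% intervals of the limma fit, for the 3 pairs of groups; filled points had an adjusted p under 0.05 and open points did not. Itgam, Itgal and Itga5 lie to the right of 0 in both comparisons of anti-PD-L1, Itgax and Itgb5 to the left, and no point of the isotype control against untreated wells is filled.

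Levels per exonic kilobase were used to set genes beside each other. They rest on the annotated exon length and were not corrected for uneven coverage, a limit that also holds for the ratios below. On this scale Itgb2 was the highest of the 10 in untreated wells (305 ± 23 CPM per kilobase). Itgam (194 ± 19), Itgb5 (119 ± 9.2) and Itgb1 (113 ± 16) followed. Itgb7 (65.1 ± 41), Itga5 (32.1 ± 12), Itgal (27.9 ± 13), Itga4 (24.2 ± 2.6) and Itgav (19.8 ± 2.4) came next, and Itgax was lowest (8.79 ± 0.84 CPM per kilobase). From Itgb5 down to Itgav each gene's libraries overlapped with those of its neighbour in this order. With the isotype control the order was the same, and the overlaps were between Itgb5 and Itgb1, Itgb1 and Itgb7, Itga5 and Itgal, and Itga4 and Itgav. With anti-PD-L1 Itgam was highest (437 ± 29) and did not overlap with Itgb2 (387 ± 23), while Itgal (89.1 ± 15), Itga5 (81.4 ± 5.9) and Itgb7 (78.2 ± 9.8) formed an overlapping group below Itgb1 (113 ± 4.8 CPM per kilobase).

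The ratio of 2 subunits within a library needs no scaling between libraries. Per kilobase 12 ratios were computed, most of them alpha over beta, and the others between 2 alpha chains (Itgam over Itgax, Itgal over Itgam) or 2 beta chains (Itgb7 over Itgb1, Itgb5 over Itgb1). Itgam over Itgb2 was 1.04, 1.17 and 1.19 with anti-PD-L1, 0.634, 0.608 and 0.518 with the isotype control and 0.522, 0.696 and 0.704 in untreated wells. Itgal over Itgb2 was 0.21, 0.212 and 0.268 with anti-PD-L1, against 0.106 to 0.115 with the isotype control and 0.0643 to 0.128 in untreated wells. Itgax over Itgb2 went the other way, at 0.012 to 0.0157 with anti-PD-L1 and 0.0271 to 0.0296 in the other 6 libraries. Itgam stood at 66.1 to 98.6 times Itgax with anti-PD-L1 and at 17.5 to 25.7 times in the others. The 3 alpha chains together came to 1.37 ± 0.1 of Itgb2 with anti-PD-L1, 0.727 ± 0.058 with the isotype control and 0.759 ± 0.07 in untreated wells.

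Itga5 over Itgb1 was 0.743, 0.646 and 0.779 with anti-PD-L1, 0.305 to 0.441 with the isotype control and 0.195 to 0.488 in untreated wells. Itga4 over Itgb1 overlapped between all groups (0.208 to 0.25, 0.223 to 0.312 and 0.181 to 0.288). Itgav over Itgb5 was 0.304 to 0.358 with anti-PD-L1, above the 0.203 to 0.267 of the isotype control and the 0.144 to 0.208 of untreated wells. Itgb5 over Itgb1 was 0.587 ± 0.062 with anti-PD-L1 and 1.02 ± 0.087 with the isotype control. The libraries of the 2 antibodies did not overlap in 8 of the 12 ratios, and an exact two-sided permutation test gave each of them p = 0.1, the smallest that 3 libraries against 3 allow (0.15 after Benjamini-Hochberg adjustment over the 12). Each of the 8 holds a subunit already called alone (Itgam, Itgal, Itgax, Itga5 or Itgb5), so the count is not separate evidence. Among single genes 52.1% did not overlap between these groups, and no share over other pairs of genes was computed.

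**Figure D3:**
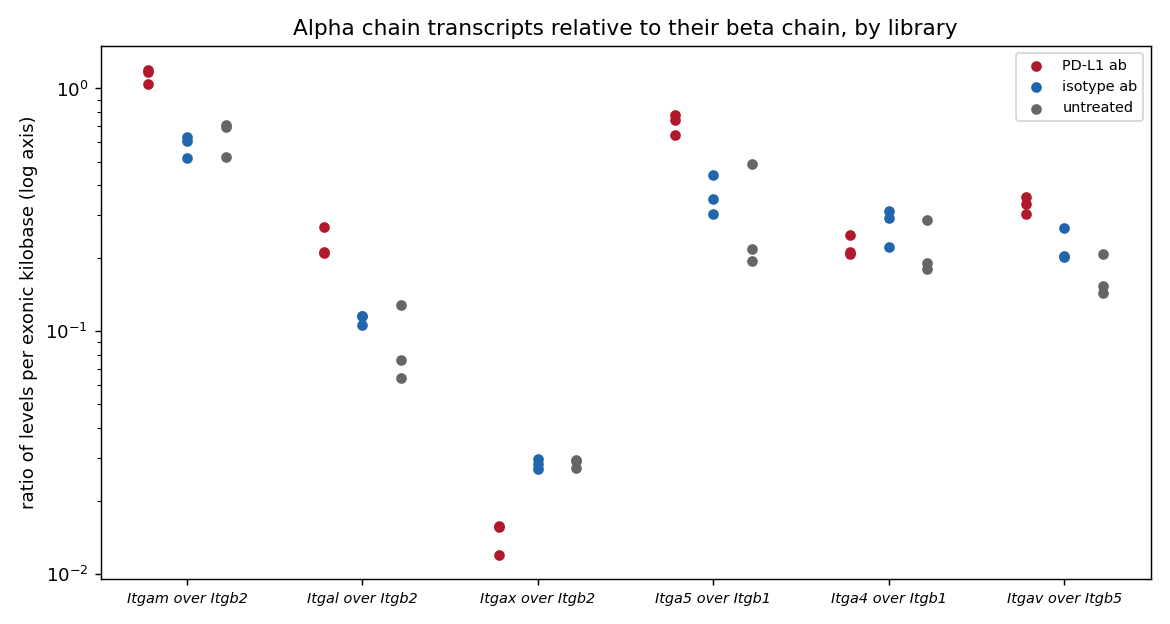
Ratio of an alpha chain transcript to its beta chain per exonic kilobase (log axis) for 6 pairs, with 1 point per library in the 3 groups. The anti-PD-L1 points lie above the others for Itgam and Itgal over Itgb2, Itga5 over Itgb1 and Itgav over Itgb5, below them for Itgax over Itgb2, and among them for Itga4 over Itgb1.

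Isotype control and untreated wells differ in the presence of an antibody without the target. With all 9 libraries none of the 10 subunits passed in limma, where 0.00728% of all genes (1 gene) did. Itga4 and Itgav had an unadjusted p under 0.05, and neither edgeR nor DESeq2 called any of the 10. The libraries of the 2 groups did not overlap in 1 of the 10, Itgav (13.2% of all genes). The absence of calls rested on untreated 7, which was picked out by its values in these same genes. Without it 2 untreated libraries were left, and p-values of that fit are not a separate test. In that fit 5 of the 10 rose with the isotype control, where 9.56% of all genes rose and 6.85% fell (16.4% in all). These were Itgb7 (log2 fold change 1.16, limma adjusted p = 0.00195), Itgal (0.87, limma adjusted p = 0.00191), Itga5 (0.61, limma adjusted p = 0.00563), Itgav (0.39, limma adjusted p = 0.0058) and Itga4 (0.36, limma adjusted p = 0.0422).

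On the log2(CPM + 1) scale untreated 7 stood above the mean of untreated 8 and 9 by 1.43 in Itgb7, 1.05 in Itgal and 0.86 in Itga5, where the isotype control libraries stood above it by 0.75 to 1.5, 0.82 to 0.98 and 0.47 to 0.87. In Itgb1 untreated 7 stood at -0.37 and the isotype control libraries between -0.25 and -0.09. Other values moved with it. Untreated 7 had the fewest exonic read equivalents of the 9, and these came to 68.35% of its reads over gene spans, beside 70.88% and 70.18% in untreated 8 and 9 and 68.03 to 69.55% with the isotype control. Its 8 monocyte markers summed to 415.5 CPM; the isotype control libraries lay at 445.2 to 519.1 CPM, untreated 8 at 339.5 CPM and untreated 9 at 281.3 CPM, and its macrophage list was the lowest (17680 CPM). Its 6 endothelial markers summed to 195.4 CPM, beside 82.42 CPM in untreated 8, 72.38 CPM in untreated 9 and 137.9 to 179.6 CPM with the isotype control. Most of the sum in untreated 7 was Kdr (91.84 CPM) and Vwf (99.28 CPM). In untreated 7, 8 and 9 Cdh5 stood at 2.727, 4.794 and 1.401 CPM and Egfl7 at 0.9934, 0.45 and 0.2675 CPM. The part of such cells in the integrin values was not tested, and the labels put library 7 in the untreated group. Whether it was swapped or mixed with another sample cannot be told from the labels and was not tested.

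**Figure D4:**
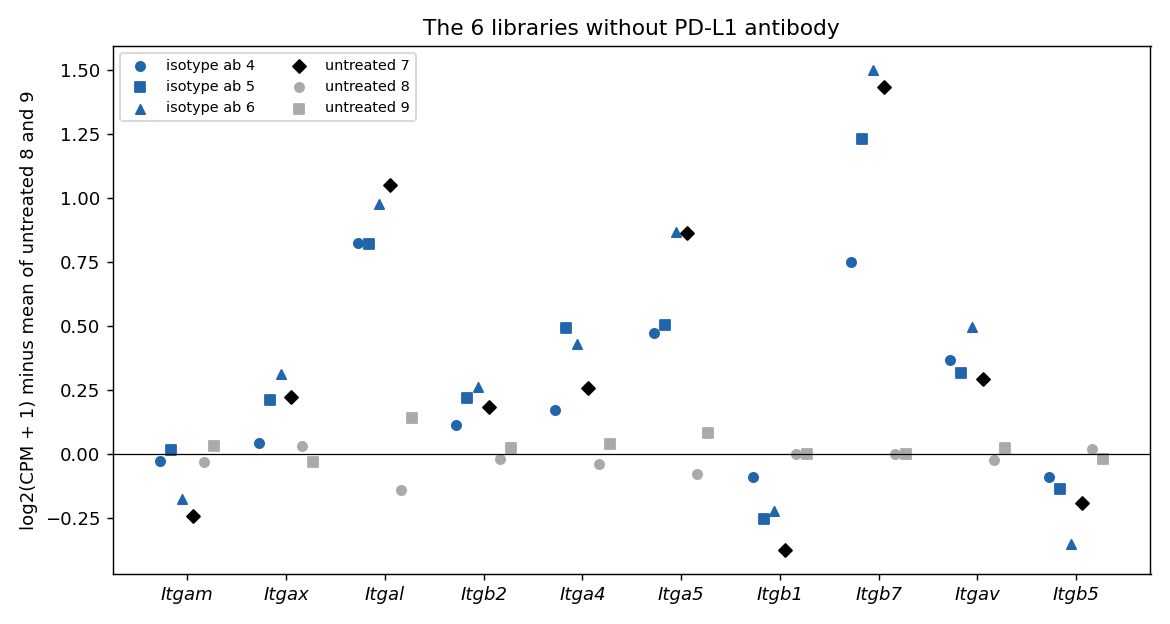
The 6 libraries without anti-PD-L1, each shown as log2(CPM + 1) minus the mean of untreated 8 and 9, for the 10 subunits. Untreated 7 (diamonds) lies near the isotype control libraries in Itgal, Itga5, Itgb7 and Itgav, at 1.05, 0.86, 1.43 and 0.29. In Itgax, Itgb2, Itga4 and Itgb5 it lies within their range, at 0.22, 0.18, 0.26 and -0.19. In Itgam and Itgb1 it lies below all of them, at -0.24 and -0.37.

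Of the 17 other integrin subunits 15 were tested, and against the isotype control 2 rose and 3 fell (median -0.01), beside 18.2% of all genes in each direction. Itga1, a collagen-binding alpha chain, stood at 26.81, 18.93 and 40.28 CPM with anti-PD-L1, 7.163 to 9.3 CPM with the isotype control and 2.382 to 7.32 CPM in untreated wells. It rose by 1.6 (SE 0.31, limma adjusted p = 0.00213), and the groups did not overlap. Itgb8, a beta partner of Itgav that binds latent TGF-beta, was low but went to 5.32, 4.98 and 6.227 CPM from 0.5528 to 1.564 CPM with the isotype control and 0.04285 to 1.515 CPM in untreated wells (log2 fold change 1.68, SE 0.3, limma adjusted p = 0.00127). DESeq2 did not call the Itgb8 difference from the isotype control (DESeq2 adjusted p = 0.073).

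Itgb3, another beta partner of Itgav and the osteoclast vitronectin receptor chain, fell to 20.46, 33.36 and 28.84 CPM from 57.82 to 68.63 CPM with the isotype control (-1.2, SE 0.23, limma adjusted p = 0.0017). Its untreated libraries stood at 87.43, 56.4 and 43.5 CPM. Of 5 tested osteoclast markers 2 fell and 1 rose against the isotype control. The list held 124.3 to 160.5 CPM with anti-PD-L1, 264.7 to 318.2 CPM with the isotype control and 241.7 to 316.4 CPM in untreated wells. Atp6v0d2 made up most of the sum with the isotype control. From the isotype control to anti-PD-L1 the means of Atp6v0d2 (235.5 to 56.37 CPM) and Dcstamp (12.48 to 1.799 CPM) fell. Acp5 rose from 20.34 to 64 CPM, and Ctsk stood at 21.41 and 21.89 CPM with the isotype control and anti-PD-L1. Itga2b, the platelet partner of Itgb3, was at 19.02 ± 5.57, 32.05 ± 8.15 and 40.48 ± 13.6 CPM in the 3 groups. Its difference passed against untreated wells (-1.04, limma adjusted p = 0.00971, and -0.8 without untreated 7) and missed the threshold against the isotype control (-0.73, limma adjusted p = 0.0542), which it passed without anti-PD-L1 3 (-0.91, limma adjusted p = 0.043) or isotype 6 (-0.95, limma adjusted p = 0.0281), with total-count or upper-quartile scaling, with only the 2 groups and in DESeq2. Beside these genes, of 6 megakaryocyte and platelet markers (Itga2b among them) 3 fell and 1 rose against the isotype control. The list summed to 270.8 to 410.3 CPM with anti-PD-L1, 90.36 to 137.4 CPM with the isotype control and 161.1 to 194.1 CPM in untreated wells, mostly Pf4. Gp9 was at 0.5088 and 2.223 CPM with the 2 antibodies. The part of cells of either kind was not tested.

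Itga6, a laminin receptor alpha chain, fell to 122.3, 138.9 and 104.7 CPM from 189.6 to 197 CPM with the isotype control and 156.2 to 180.5 CPM in untreated wells (-0.66 and -0.44, the latter -0.38 without untreated 7). Itgb2l, an Itgb2-like gene, fell to 2.678, 3.462 and 2.231 CPM from 6.531 to 10.48 CPM with the isotype control (-1.21, SE 0.18, limma adjusted p = 0.000339). Itga9 differed as much within the control groups as between them, at 10.38 to 28.59 CPM with the isotype control and 12.63 to 35.82 CPM in untreated wells, and did not pass; without isotype 4 it was 1.11 above the isotype control (limma adjusted p = 0.0303). Against untreated wells 4 rose (Itga1, Itgb8, and the low Itga11 and Itgae) and 4 fell (Itgb3, Itga2b, Itga6 and Itgb2l), beside 22% and 20.5% of all genes. Itga11 and Itgae were under 1 CPM in every library and were not called on deposited read counts, and Itgae was lost without anti-PD-L1 1, anti-PD-L1 2 or untreated 9 (limma adjusted p = 0.0515, 0.0574 and 0.0653). The other tested subunits, Itga3, Itga7, Itga8, Itga10, Itgad and Itgb4, averaged 0.2001 to 1.063 CPM per group and did not pass in any comparison, and Itga2 and Itgb6 were too low to be tested. Without untreated 7, Itga1, Itgb8 and Itga9 also differed between the isotype control and untreated wells (1.17, 0.91 and -1.04), while none of the 15 did with it (3 at an unadjusted p under 0.05, 0 by edgeR and 0 by DESeq2).

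Of the ligands that these receptors bind, 18 of 24 were tested, with 5 rises and 3 falls against the isotype control (median 0.05); without anti-PD-L1 2 there was 1 fall, and with total-count scaling there were 5. The counts of this and the next lists stand beside 18.2% of all genes rising and 18.2% falling against the isotype control. Against untreated wells the shares were 22% and 20.5%. The genes named from this and the next lists passed against the isotype control unless a p is given. Thbs1, the matrix protein thrombospondin 1, went from 517.6 ± 55.2 to 5179 ± 974 CPM (log2 fold change 3.31, SE 0.14). Icam1, a ligand of LFA-1 and Mac-1, went from 161.9 ± 12 to 279.9 ± 33.8 CPM, and Vcam1, a ligand of Itga4 pairs, from 10.63 ± 3.28 to 29.17 ± 8 CPM. Icam2, also on this list and named outside the rule after its values were seen, fell from 11.54 ± 0.256 to 8.491 ± 0.821 CPM. Mfge8, which bridges dying cells to Itgav pairs, fell from 348.1 ± 11.4 to 156 ± 19.7 CPM. Against untreated wells 6 ligands rose and 3 fell, and without untreated 9, or with total-count or upper-quartile scaling, there were 5 falls.

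Integrins are switched to their binding state from inside the cell by talin and kindlin, which act on the beta tail under the small GTPase Rap1. Of 23 tested genes of this module 5 rose and 4 fell against the isotype control (median 0.06), with 8 rises in DESeq2. The list holds genes that restrain this switch beside genes that drive it, so its counts give no direction of integrin activation. Rapgef2, an exchange factor for Rap1, went from 49.47 ± 3.68 to 186.2 ± 29.2 CPM. Fyb, an adaptor in this module, went from 674.7 ± 23.4 to 1106 ± 47.2 CPM, and Fermt3, the kindlin of blood cells, from 403.2 ± 27.5 to 560.5 ± 32 CPM. Rassf5, the Rap1 effector RAPL, fell from 72.62 ± 3.5 to 50.05 ± 0.602 CPM. Tln1, the talin of leukocytes, named here outside the rule and after its values were seen, was at 955.8 ± 136 and 880.2 ± 76.5 CPM and did not pass against the isotype control (limma adjusted p = 0.651). It was 689 ± 193 CPM in untreated wells and passed there (log2 fold change 0.5, limma adjusted p = 0.0381). Against untreated wells 8 rose and 4 fell. Without anti-PD-L1 1 or untreated 9 the rises were 3, without untreated 8 they were 4, and without anti-PD-L1 2 or 3 they were 5. Total-count and upper-quartile scaling gave 3 rises, and no filter, only the 2 groups or edgeR on deposited counts gave 5; falls were 2 with edgeR on counts summed over transcripts.

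Kinases and adaptors of the adhesion complex carry the signal of bound integrins. Of 35 tested 15 rose and 6 fell against the isotype control (median 0.2), beside 18.2% of all genes in each direction. Against untreated wells 15 rose and 4 fell (2 falls without anti-PD-L1 1), beside 22% and 20.5% of all genes. Lcp2, the adaptor SLP-76, went from 65.55 ± 6.37 to 149.3 ± 13.1 CPM, and Vav1, an exchange factor that acts on the actin skeleton, from 204.6 ± 7.91 to 315.7 ± 4.53 CPM. Ptk2, focal adhesion kinase, was lower in level and went from 9.053 ± 0.401 to 23.18 ± 0.599 CPM.

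Among 19 surface partners and shedding enzymes 8 rose and 4 fell against the isotype control (median 0.22), with the same counts against untreated wells. Cd14, a lipopolysaccharide co-receptor that can sit beside Mac-1, went from 526.1 ± 57.4 to 1738 ± 365 CPM and Slc3a2, the CD98 heavy chain that binds beta tails, from 510.1 ± 26.1 to 847.5 ± 30.3 CPM. The membrane proteases Adam17 and Adam8 rose by 0.44 and 0.87 on the log2 scale. Of 17 tested trafficking genes 5 rose and 1 fell against the isotype control (median 0.11), and 4 rose and 3 fell against untreated wells. Of the rises against the isotype control 3 were left without anti-PD-L1 1, 2 or 3, isotype 5 or isotype 6, and the falls were 2 without anti-PD-L1 2. There were also 3 rises with total-count or upper-quartile scaling, no filter or edgeR on deposited counts, and 4 falls with total-count scaling. Ehd1, an endosomal recycling protein, went from 179.4 ± 14.1 to 684 ± 124 CPM, Rab11fip1 from 56.07 ± 6.39 to 139.4 ± 20 CPM and the recycling GTPase Rab11a from 88.22 ± 3.32 to 131.2 ± 4.54 CPM. Swap70, an actin-binding signalling protein, fell from 193.8 ± 5.56 to 132.4 ± 2.15 CPM.

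Among tested genes with a mean of at least 5 CPM, the 2 whose log2(CPM + 1) was most like each subunit over the 9 libraries were listed by Pearson's r, as a description, since the points share groups and libraries. They were Fam162a and Pilra for Itgam (r = 0.999 and 0.997), Foxm1 and Mocos for Itgax (0.985 and 0.982), Dhx38 and Calr for Itgal (both 0.995) and Cs and G6pdx for Itgb2 (0.985 and 0.978). For Itga5 they were Slc7a8 and Larp1 (both 0.996), for Itga4 Foxj2 and Tet3 (0.965 and 0.958) and for Itgb1 Dynlt3 and Tm2d1 (both 0.963). Itgb7 was followed by Piezo1 and Pcdh7 (both 0.989), Itgav by E2f8 and Bod1l (0.976 and 0.975) and Itgb5 by Khk and N4bp2l1 (0.994 and 0.993).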

How the data were processed

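Oligo(dT)-enriched RNA of 9 macrophage samples was read in pairs of 150 bases, per the labels' protocols. The submitters' processing notes name Partek and STAR; versions and genome build are not given in the sources used here. Positions overlapped the GENCODE M21 gene of the same name for 99.1% of 21923 symbols, so GRCm38 was used. Deposited read counts cover each transcript's whole span, introns included. Per the file headers there is also average coverage (a signal per exonic base), the exon length and the percent of exonic bases covered 20-fold. Deposited GC percent and quality score were not used.

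Exonic read equivalents were coverage times exon length divided by 150, using the transcript with the most per symbol. Of 22376 genes 13741 were kept by filterByExpr (edgeR). After TMM scaling, log2(CPM + 1) was fitted in limma over all 9 libraries with a trended variance and Benjamini-Hochberg adjustment. Ratios used exact permutation tests. The procedure was also run on simulated counts with few changed genes and no library apart from its group. The outcome of that run is not given here, and these data differ from its setting. Reads carry no molecular identifiers and are not counts of separate molecules. SEs, intervals and p-values come from the spread between libraries, and depth limits the low genes most.

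Members and gene lists were chosen with earlier results of these data known. Named were the 10 members, tested other integrin subunits, the 4 lowest p of each further list, the 2 most similar genes per member, and Cd274; 1 gene that this rule names is not reported here. Marker genes, Cerkl, Icam2 and Tln1 lie outside this rule and were named after their values were seen. Alternatives were other scalings, filters, pseudocounts, transcripts, tools (edgeR's quasi-likelihood test and DESeq2) and leaving out each library. Software was R 4.3.3, limma 3.58.1, edgeR 4.0.16, DESeq2 1.42.0 and Python 3.11.15.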

Additional observations from a re-analysis of the deposited data

How the results depend on the processing

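The all-gene median shifted with total-count scaling by -0.14 against the isotype antibody and -0.12 against untreated wells, and upper-quartile scaling by -0.05 and -0.06. Under total-count scaling 1565 genes rose and 4143 fell against the isotype antibody (2495 and 2501 with TMM), 4 of the 10 subunits fell, and 1940 genes rose against untreated wells (3017 with TMM). Itgb1 then turned to -0.10 against the isotype antibody, and Itga4, Itgb1, Itgav and Itga9 to -0.09, -0.14, 0.00 and -0.04 against untreated wells. Upper-quartile scaling gave -0.02 for Itga4 and -0.07 for Itgb1 there, and 0.00 for Itgam between the control groups. Without a filter Itgb1 was -0.01 against untreated wells.

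Itga3 against the isotype antibody was 0.03 in edgeR and DESeq2 and 0.00 with the mean over transcripts, and Itga9 against untreated wells was -0.03 and -0.02. On deposited read counts edgeR gave Itga8, Itgad and Itgb4 0.62, 0.30 and 0.40 against the isotype antibody and Itgad 0.48 against untreated wells. Between the control groups it gave Itga8 -0.22, Itga11 -0.11, Itgad 0.18 and Itgae -0.05, or -0.09 with transcripts summed, which also gave Itga3 0.01. All of these except Itga9 stood under 2 CPM, where depth limits most.

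Genes that differed between the control groups (1 in limma) were 2 with total-count scaling or edgeR on deposited counts, 0 with edgeR on exonic reads or only the 2 groups, and 13 with DESeq2 (8 higher, 5 lower). Lower genes were 1 with total-count scaling, no filter or edgeR on deposited counts, and higher genes 0 with no filter, edgeR on exonic reads or only the 2 groups. Leaving out single libraries gave 0 to 2295 genes (0 to 1337 higher, 0 to 958 lower) and 0 to 5 subunits. The causes were not tested.

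The same leave-outs gave, against the isotype antibody, Itga7 -0.01 to 0.39, Itga8 -0.14 to 0.00, Itga3 -0.11 to 0.14, Itgb4 -0.09 to 0.07 and Itga10 -0.01 to 0.19. Against untreated wells they gave Itga10 -0.01 to 0.16, Itgb1 -0.12 to 0.07, Itga4 -0.03 to 0.14, Itga3 -0.20 to 0.06, Itga7 -0.47 to 0.15 and Itga9 -0.35 to 0.37. Between the control groups they gave Itga10 -0.12 to 0.07, Itgad -0.09 to 0.06, Itgam -0.06 to 0.07, Itgb1 -0.19 to 0.00 and Itgb3 -0.14 to 0.35. No paired analysis was made, because the labels do not say which libraries, if any, share a mouse or culture.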
